A study of Mus musculus with 4 samples.

Results

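The pretumorigenic cluster is one of 8 groups of YFP+CD4+ T cells that the authors named in the small intestine. Its members were taken as the cells whose deposited cluster name is pretumorigenic, and they number 392 of 5080 cells. Of these, 230 came from 2975 cells labelled TGFβR-KO, 79 from 1007 labelled TGFβR-WT and 83 from 1098 labelled TGFβR-CA. The label carries 6 marker genes of a stress response, *Hspa1a*, *Hspa1b*, *Dnajb1*, *Jun*, *Fos* and *Klf6*.

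All mice were 7 to 8 months old and on a C57BL/6 background. They carried *Il17a*-cre, which is active in T cells that express the cytokine IL-17A, and a *Rosa26* reporter in which Cre removes a stop cassette, so that YFP marks cells that have expressed *Il17a* at any time. TGFβR-KO mice also carried floxed *Tgfbr2*, the gene of a TGFβ receptor chain, TGFβR-CA mice carried a constitutively active *Tgfbr1* behind a floxed stop, and TGFβR-WT mice were controls without these floxed alleles. Cells were sorted after the tissue had been digested with enzymes, and the 4 samples, each a pool of mice, comprise 2 of TGFβR-WT and 1 of either altered genotype. A TGFβR-WT sample went into each of 2 sequencing runs, beside TGFβR-KO in one and TGFβR-CA in the other. The names of TGFβR-WT cells end in 2 suffixes, on 709 and on 298 cells, with nothing to say which sample either suffix stands for. The cells of each suffix are called the larger and the smaller TGFβR-WT set.

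Heat shock proteins are chaperones that refold or hold damaged proteins, and heat shock factors raise their transcription within minutes of heat, oxidative stress or other harm to proteins. JUN and FOS proteins pair to form AP-1, which is induced within minutes of many stimuli, among them signals through the T cell receptor and the removal of cells from tissue. TH17 cells, named after IL-17A, guard the intestinal mucosa, and they can turn to production of IFNγ, the cytokine of TH1 cells.

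The values are UMIs, unique molecular identifiers that count captured RNA molecules, after the authors had corrected them to a common depth. To give the level of a gene in a group, its corrected UMIs were added up over the cells and expressed per 10000 of all corrected UMIs there. With 1 sample each for TGFβR-KO and TGFβR-CA, and with clusters that were drawn from the same genes, no difference was tested, and a gene was called higher or lower by a ratio of at least 1.5 in either direction among genes with a level of at least 0.5 in the condition. Shares carry 95% confidence intervals by the exact Clopper-Pearson method. These take in counting error alone and leave out the spread between mice.

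The share of pretumorigenic cells was about the same under the 3 labels, but not within TGFβR-WT. It was 7.73% in TGFβR-KO (6.80% to 8.75%), 7.85% in TGFβR-WT (6.26% to 9.68%) and 7.56% in TGFβR-CA (6.07% to 9.28%). Within TGFβR-WT it was 3.81% in the larger set (27 of 709 cells, 2.52% to 5.49%) and 17.4% in the smaller set (52 of 298 cells, 13.3% to 22.2%), a ratio of 4.58. The 2 TGFβR-WT sets thus lay on either side of both altered conditions, and the pooled value rests on how many cells each set gave.

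**Figure D1:**
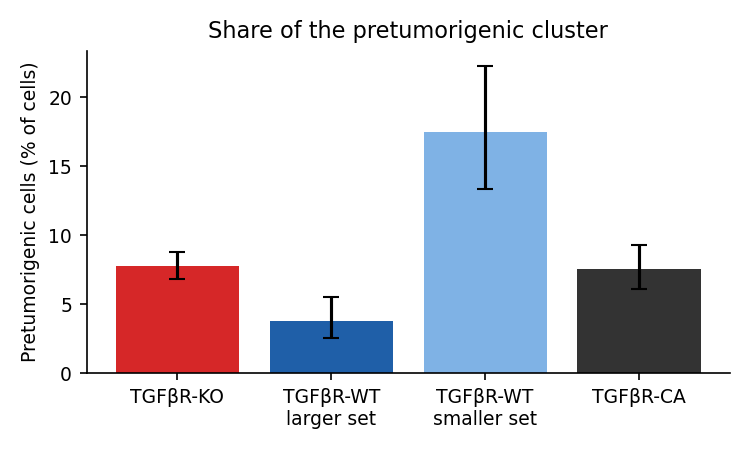
Share of pretumorigenic cells (y axis, percent of all cells of the set) in TGFβR-KO, both TGFβR-WT sets and TGFβR-CA (x axis), with exact 95% confidence intervals as error bars. The smaller TGFβR-WT set stood at 17.4% and the larger at 3.81%, with TGFβR-KO at 7.73% and TGFβR-CA at 7.56% between them.

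The median number of detected genes was 1305.5 in pretumorigenic and 1502 in other TGFβR-KO cells, 1315 and 1478 in the larger and 1492.5 and 1719.5 in the smaller TGFβR-WT set, and 1395 and 1572 in TGFβR-CA. It was lower in pretumorigenic cells in each of the 4 sets, though TR-TFH cells came near, with medians of 1328 in TGFβR-KO and 1371 in the larger TGFβR-WT set. The median mitochondrial share of corrected UMIs ranged over the sets from 0.567% to 1.21% in pretumorigenic cells and from 0.655% to 1.22% in the others, and no pretumorigenic cell was above 5%. None was among the 32 cells with a barcode found in several sets. All 7 listed CD4 T cell genes were above 0 in the cluster in every set. The summed level of the 7 epithelial genes was 0.0495 to 0.329 over the sets, that of the 4 γδ T cell genes 0 to 0.396 and that of the 3 B cell genes 0 to 0.22. The 3 plasma cell genes summed to 5.93 in the larger TGFβR-WT set, where all 53 corrected UMIs of *Jchain* came from 1 cell, and to 0.125 to 0.594 in the other sets.

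The targeted genes did not check the labels. *Tgfbr2* was at 1.40 in pretumorigenic and 1.49 in other TGFβR-KO cells, beside 2.20 against 1.70 in the larger TGFβR-WT set, 1.88 against 1.73 in the smaller one and 1.32 against 1.81 in TGFβR-CA. The end of the transcript that was sequenced is not given for these libraries in the sources used here, where a kit is named only for a separate T cell receptor experiment, so a count outside the deleted part cannot be told from an intact gene. *Tgfbr1* was at 1.25 in pretumorigenic TGFβR-CA cells, at 0.184 in TGFβR-KO, at 4.61 in the smaller TGFβR-WT set and at 0 in the larger one, where 3 corrected UMIs would be a level of 0.329. The smaller TGFβR-WT set was thus above the cells labelled TGFβR-CA, and the larger one below them. Whether RNA of the active allele is counted as *Tgfbr1* is not given in the sources used here. The level of *Tgfbr1* therefore cannot decide for or against the label, and the conditions below are the labels of the cells.

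Among heat shock genes, the stress-inducible HSP70 pair stood highest over the other cells. *Hspa1a* and *Hspa1b*, neighbors on chromosome 17 that encode nearly the same inducible HSP70 chaperone, lie on the minus strand of mm10 (GRCm38) at chr17:34969190-34972156 and chr17:34956436-34959238. The level of *Hspa1a* in pretumorigenic cells was 74.9 in TGFβR-KO, 29.3 in the larger and 15.7 in the smaller TGFβR-WT set and 18.7 in TGFβR-CA. In all other cells it was 3.16, 0.903, 1.32 and 0.972, so the ratio ran from 11.9 in the smaller TGFβR-WT set to 32.5 in the larger one. *Hspa1b* was at 83.6, 44.0, 27.6 and 31.5, against 4.0, 1.70, 2.86 and 2.18 in the other cells in the same order. Both were highest in TGFβR-KO and lowest in the smaller TGFβR-WT set. The share of cells behind these levels differed as well. *Hspa1a* was detected in 193 of 230 pretumorigenic TGFβR-KO cells (83.9%), 21 of 27 in the larger TGFβR-WT set (77.8%) and 51 of 83 in TGFβR-CA (61.4%), but in 18 of 52 in the smaller TGFβR-WT set (34.6%, 22.0% to 49.1%). In other cells the share was 15.5% to 23.5% over the sets, with median corrected UMIs per cell of 3457 to 4034 there and 3290 to 3734.5 in the cluster. Reads of the 2 genes could be split or mixed, since 1873 of 2937 words of 31 bases of the *Hspa1a* transcript also occur in *Hspa1b*, although none of the 470 words of its last 500 bases does.

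The promoters of the leading genes are shown because members that are high together can share letters near their start. Each sequence is from RefSeq on GRCm38.p6, from 250 bases before to 50 bases after the start of the gene, on its own strand. The capitals mark a pair of inverted heat shock units (GAANNTTC, searched on both strands) in *Hspa1a* (chr17:34972107-34972406, minus strand) and *Jun* (chr4:95052173-95052472, minus strand), and a cyclic AMP response element (TGACGTCA) in *Dusp1* (chr17:26508423-26508722, minus strand).
Hspa1a: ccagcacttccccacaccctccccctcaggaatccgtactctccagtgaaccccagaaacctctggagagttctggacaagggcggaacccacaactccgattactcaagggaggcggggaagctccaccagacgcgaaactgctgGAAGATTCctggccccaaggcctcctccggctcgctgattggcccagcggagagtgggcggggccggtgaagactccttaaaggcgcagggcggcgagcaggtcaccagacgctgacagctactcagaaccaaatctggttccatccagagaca
Jun: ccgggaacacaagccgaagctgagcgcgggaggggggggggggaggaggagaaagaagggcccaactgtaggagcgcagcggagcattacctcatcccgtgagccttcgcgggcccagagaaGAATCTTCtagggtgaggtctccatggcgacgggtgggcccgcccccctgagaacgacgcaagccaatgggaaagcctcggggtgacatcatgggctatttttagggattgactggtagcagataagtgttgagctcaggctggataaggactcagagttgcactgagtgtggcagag
Dusp1: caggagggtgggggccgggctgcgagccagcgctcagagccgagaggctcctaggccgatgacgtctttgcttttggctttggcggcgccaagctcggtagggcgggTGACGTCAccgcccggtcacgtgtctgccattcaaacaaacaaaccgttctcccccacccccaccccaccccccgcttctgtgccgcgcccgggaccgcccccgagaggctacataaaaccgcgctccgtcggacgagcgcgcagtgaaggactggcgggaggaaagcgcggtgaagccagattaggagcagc
The pair lies 104 bases before the start in *Hspa1a* and 128 bases before it in *Jun*, and the response element 143 bases before it in *Dusp1*. The *Hspa1b* promoter is identical to that of *Hspa1a* at 296 of 300 positions and holds the same pair at the same distance. GAANNTTC occurs in 7.86% of all 32851 promoters of the table and TGACGTCA in 1.79%. These letters are a description of the window and not evidence of binding.

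DNAJB1 is an HSP40 cochaperone that delivers clients to HSP70 and starts its cycle. *Dnajb1* (chr8:83608193-83612653, plus strand) was at 21.1 in pretumorigenic TGFβR-KO cells, 6.04 in the larger and 4.61 in the smaller TGFβR-WT set and 5.02 in TGFβR-CA, against 1.61, 0.923, 1.62 and 1.73 in the other cells. The order of the sets was that of *Hspa1a*. *Hsp90aa1*, the inducible HSP90, was at 29.6, 11, 10.6 and 4.86, with ratios from 1.77 in TGFβR-CA to 5.87 in TGFβR-KO. *Hspe1* and *Hspd1*, the mitochondrial HSP10 and HSP60 chaperonin, passed the ratio in TGFβR-KO alone among the 4 sets. *Hspe1* was at 12.9 in TGFβR-KO against 4.42 in its other cells, and at 3.40 against 3.94 in the larger TGFβR-WT set, 3.02 against 3.58 in the smaller set and 3.76 against 3.50 in TGFβR-CA. The ratio of *Hspd1* was 2.54 in TGFβR-KO and 0.692 to 0.992 in the other sets.

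Fewer members of the heat shock list were higher outside TGFβR-KO. Of 15 heat shock genes tested in all 3 conditions, 4 were higher in all 3, namely *Hspa1a*, *Hspa1b*, *Dnajb1* and *Hsp90aa1*. Over all genes tested in all 3 conditions, 1.71% were higher in all 3. In TGFβR-KO 9 of 15 tested were higher and 1 lower, with a median ratio of 2.42, beside 4.45% of all 2902 tested genes higher, 12.6% lower and a median of 0.875 over all of them. In TGFβR-WT 6 of 16 were higher and none lower, with a median of 1.19, and in TGFβR-CA 4 of 15 were higher and 3 lower, with a median of 0.992. The background there was 7.6% higher and 20.8% lower of 3262 genes in TGFβR-WT, with a median of 0.905, and 4.46% higher and 18.2% lower of 3052 genes in TGFβR-CA, with a median of 0.894. Among constitutive chaperones, *Hspa8*, the gene of HSC70, was at 18.7 against 6.02 in TGFβR-KO, 6.81 against 4.12 in the larger and 23.1 against 15.9 in the smaller TGFβR-WT set, and 10.4 against 10.2 in TGFβR-CA. *Hsp90ab1*, the constitutive HSP90, had a ratio of 2.21 in TGFβR-KO and of 1.11 to 1.21 in the other sets. None of the 7 tested genes of the CCT chaperonin, which folds actin and tubulin, was higher in any condition. *Hspa9*, a mitochondrial HSP70, had a ratio of 0.970 in TGFβR-KO. *Hspa2*, an HSP70 gene best known from testis, was low, at 0.184 against 0.0584 in TGFβR-KO, 0.22 against 0.0538 in the larger TGFβR-WT set, 0 against 0.0396 in the smaller set and 0.0627 against 0.0295 in TGFβR-CA.

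The AP-1 genes were more even across the sets than the heat shock genes. *Jun* (chr4:95049034-95052222, minus strand) was at 35.6 in pretumorigenic TGFβR-KO cells, 40.4 in the larger and 83.7 in the smaller TGFβR-WT set and 60.8 in TGFβR-CA, against 5.14, 5.71, 7.10 and 4.87 in the others. Its order was thus the reverse of that of *Hspa1a* in TGFβR-KO and the smaller TGFβR-WT set. *Fos* (chr12:85473890-85477273, plus strand) was at 25.6, 28.1, 23.6 and 17.2, with ratios of 10.9, 7.79, 11.9 and 14.5. *Klf6* (chr13:5861482-5870394, plus strand), a zinc finger transcription factor of the Krüppel family, was at 23.8, 16.9, 26.6 and 19.2 against 3.06, 1.66, 2.53 and 1.23. All 3 genes of the JUN family were higher in all 3 conditions, with *Junb* at 81.6 in TGFβR-KO and 46.0, 35.3 and 49.4 in the other sets. Of a list of ATF, BATF and MAF partners of AP-1, 4 genes were tested, *Batf*, *Atf1*, *Mafg* and *Maf*. None of the 4 was higher in any condition, beside 4.45%, 7.6% and 4.46% of all tested genes in TGFβR-KO, TGFβR-WT and TGFβR-CA. *Atf4*, listed with genes of the endoplasmic reticulum, was higher in all 3. *Batf* had a ratio of 0.983 in TGFβR-KO and of 0.424 to 0.503 in the other sets.

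**Figure D2:**
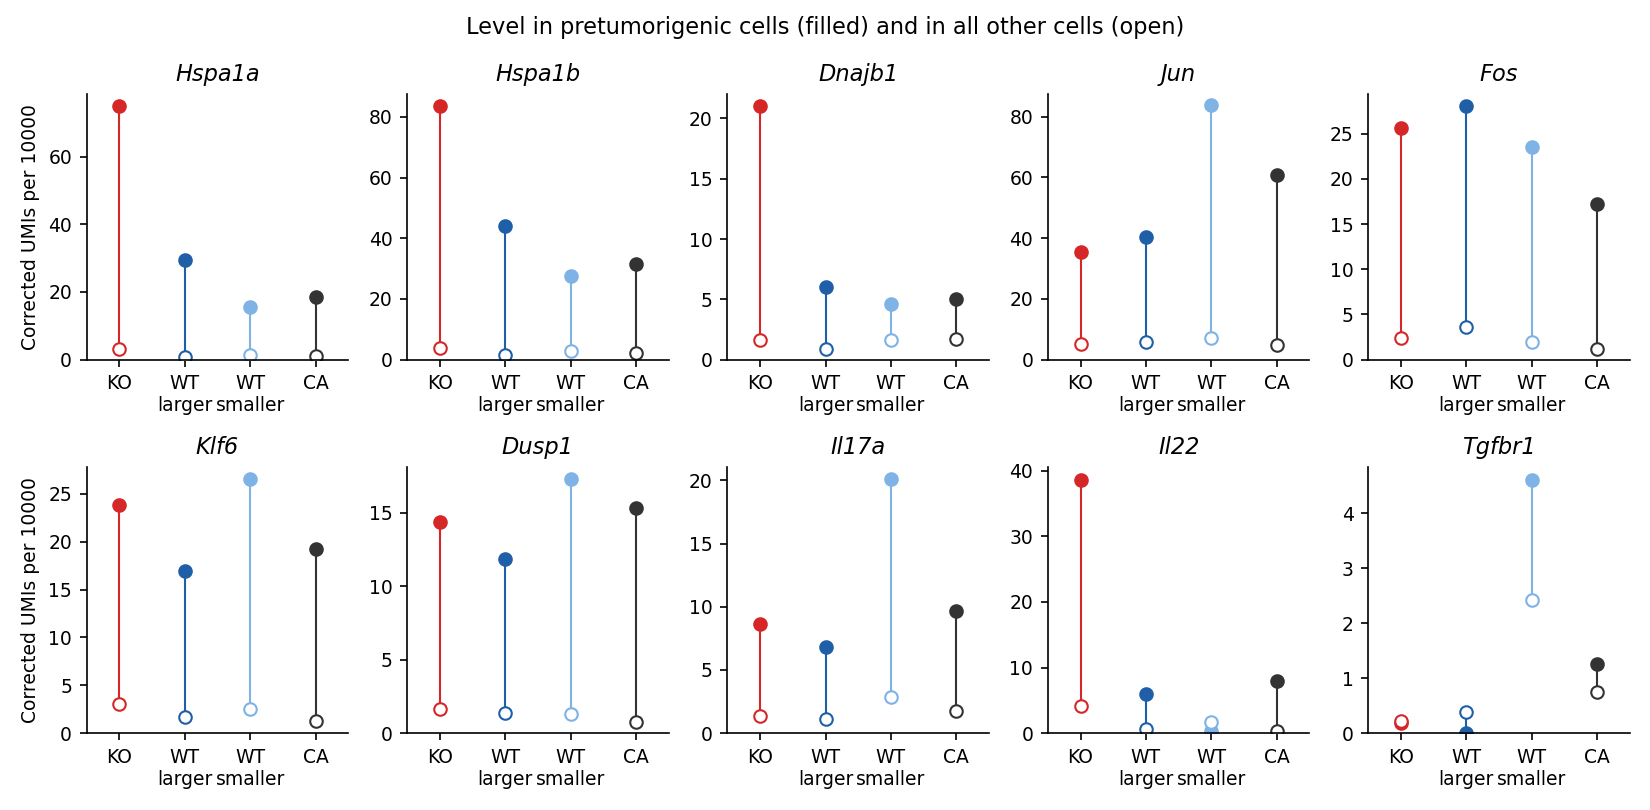
Level of 10 genes (y axis, corrected UMIs per 10000, scale differing by gene) in pretumorigenic cells (filled circles) and all other cells (open circles) of TGFβR-KO, both TGFβR-WT sets and TGFβR-CA (x axis). *Hspa1a*, *Hspa1b* and *Dnajb1* were highest in TGFβR-KO, *Jun* was highest in the smaller TGFβR-WT set at 83.7, and *Il22* stood at 38.6 in TGFβR-KO.

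Single cells showed the same contrast. The summed heat shock genes of a pretumorigenic cell had a median of 204 per 10000 in TGFβR-KO (range 8.53 to 1587), 93.2 in the larger TGFβR-WT set (42.2 to 420), 91.7 in the smaller set (23.9 to 510) and 80.6 in TGFβR-CA (8.47 to 478). The summed JUN and FOS genes had medians of 173, 136, 176 and 157 in the same order. In TGFβR-KO cells of the tumorigenic cluster the medians were 55.0 and 113. The ranges of the sets overlapped for both sums. Across cells of 1 set, which share a library and a correction for depth, Spearman's rho between the sums was 0.31 over 230 TGFβR-KO cells, 0.43 over 27 and 0.21 over 52 TGFβR-WT cells and -0.15 over 83 TGFβR-CA cells. The JUN and FOS sum had a rho with the number of detected genes of -0.44 in TGFβR-KO, -0.34 and -0.07 in the larger and smaller TGFβR-WT sets and -0.30 in TGFβR-CA.

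**Figure D3:**
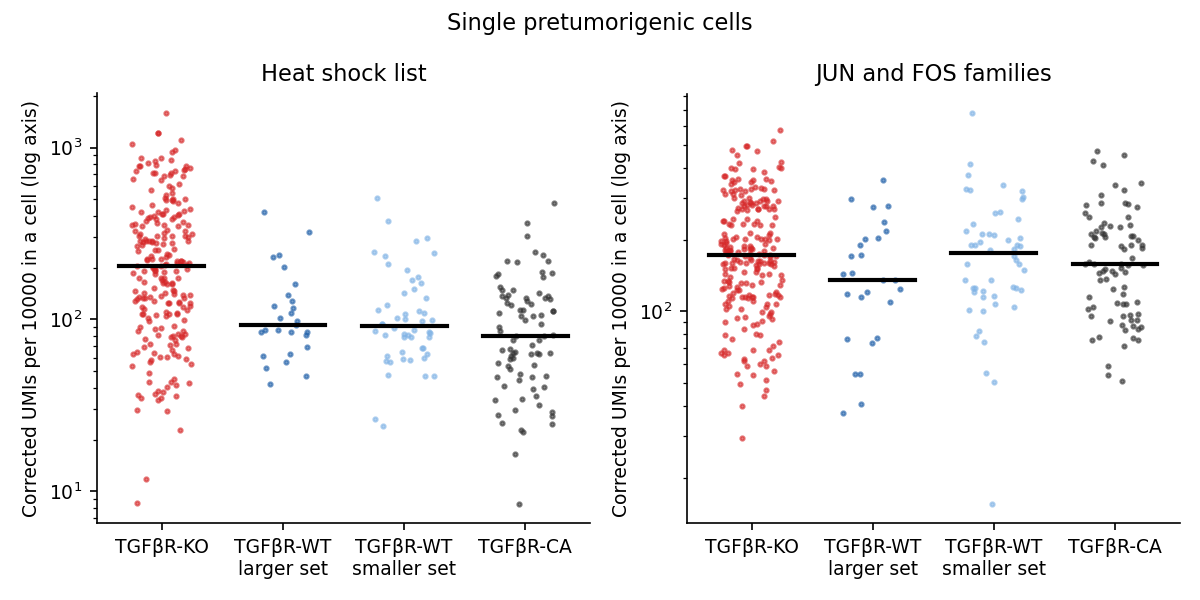
Summed heat shock genes (left) and summed JUN and FOS family genes (right) in each pretumorigenic cell (y axes, corrected UMIs per 10000, log scale) by set (x axis), with 1 point per cell and a bar at the median. The heat shock median was 204 in TGFβR-KO and 80.6 to 93.2 in the other sets, and the JUN and FOS medians lay between 136 and 176.

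Most cells of the cluster held 5 or 6 of the 6 label markers in every set but the smaller TGFβR-WT set. Since the cluster was drawn and named from such genes, this is a description and no check of the label. Of the 6 label markers, 5 or 6 were detected in 190 of 230 pretumorigenic TGFβR-KO cells (82.6%, 77.1% to 87.3%), 18 of 27 in the larger TGFβR-WT set (66.7%, 46.0% to 83.5%), 18 of 52 in the smaller set (34.6%, 22.0% to 49.1%) and 53 of 83 in TGFβR-CA (63.9%, 52.6% to 74.1%). In all other cells the share was 3.74% to 6.74% over the sets. It was 24.7% in tumorigenic TGFβR-KO cells (89 of 361), the cluster that came second. In the smaller TGFβR-WT set, cells of this name were thus mostly high in *Jun*, *Fos* and *Klf6*, with *Fos* and *Klf6* each detected in 86.5% of them and *Jun* in all 52, and most of them had no *Hspa1a*.

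Across all genes, 45 of the 2631 tested in all 3 conditions were higher in every one (1.71%) and 67 lower in every one (2.55%). Since these genes drew the cluster, the counts are a description. Of the 45, 38 passed the ratio in each of the 4 sets taken alone, and *Il22* and *Sat1*, the latter named after its values were seen, were below the other cells in a set. Of the 67, 50 passed it in each of the 4 sets. The 10 whose ratio was largest in the condition where it was weakest were *Hspa1a*, *Hspa1b*, *Dusp1*, *Fos*, *Klf6*, *Jun*, *Rgs1*, *Junb*, *Il17a* and *Ppp1r15a*. *Dusp1*, a phosphatase that switches off stress kinases, was at 14.3 in TGFβR-KO, 11.9 in the larger and 17.3 in the smaller TGFβR-WT set and 15.3 in TGFβR-CA, against 1.67, 1.35, 1.28 and 0.753. *Rgs1*, a brake on chemokine receptor signaling in intestinal T cells, was at 18.6, 13.1, 31.8 and 27.3 against 2.81, 2.41, 3.66 and 3.07. *Ppp1r15a*, which ends the block on translation under stress, had ratios of 4.58, 6.44, 5.48 and 7.19.

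Most of the early response genes moved together. Of 12 other immediate early genes tested in all 3 conditions, 9 were higher in all 3, *Btg1*, *Btg2*, *Cd69*, *Ier2*, *Ier5*, *Ppp1r10*, *Rgs1*, *Tsc22d3* and *Zfp36*, and none was lower. Over all 2631 genes tested in all 3 conditions, 1.71% were higher in all 3 and 2.55% lower. *Zfp36*, which destabilizes cytokine mRNAs, was at 9.09, 7.80, 4.95 and 6.96 against 1.70, 1.80, 1.40 and 1.05. *Cd69*, an early activation antigen that also holds T cells in tissue, was at 7.40, 11, 4.51 and 3.04 against 1.33, 0.836, 0.87 and 0.667. Of 25 genes listed as induced by tissue dissociation and tested in all 3 conditions, 17 were higher in all 3 and none was lower. That list shares the heat shock and AP-1 genes with the lists above, its summed level was 623, 372, 415 and 366 in the cluster against 119, 88.3, 110 and 87.3 in other cells of the same tubes, and the part of dissociation in the cluster was not tested. Of 11 genes of the unfolded protein response of the endoplasmic reticulum, 2 were higher in all 3, *Atf4* and *Ppp1r15a*. None of the 10 tested translation factors was higher in all 3, but 10 genes are too few to set apart from a share of 1.71%.

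Of 7 genes of NF-κB and its feedback tested in all 3 conditions, 2 were higher in all 3, *Tnfaip3* and *Nfkbia*, and none was lower in all 3. Over all genes tested in all 3 conditions, the shares were 1.71% and 2.55%. *Tnfaip3*, which removes ubiquitin from NF-κB signaling complexes, was at 12.7 in TGFβR-KO, 4.61 in the larger and 4.01 in the smaller TGFβR-WT set and 4.45 in TGFβR-CA, against 2.80, 0.613, 0.554 and 0.421. *Nfkbia*, the inhibitor that holds NF-κB in the cytoplasm, was at 16.6, 5.60, 6.79 and 8.90, with ratios of 1.53 to 3.03. By condition, 5 of 11 tested were higher and none lower in TGFβR-KO, 3 of 8 higher and 1 lower in TGFβR-WT, and 2 of 7 higher and 1 lower in TGFβR-CA, with median ratios of 1.15, 1.11 and 0.947. Over all tested genes, 4.45%, 7.6% and 4.46% were higher and 12.6%, 20.8% and 18.2% lower in the same order. *Gadd45b*, a stress sensor that NF-κB induces, was at 14.7, 4.50, 3.32 and 2.48, with ratios from 1.56 in TGFβR-CA to 5.22 in TGFβR-KO. *Nr4a1*, which reports recent T cell receptor signals, divided the sets otherwise. It was at 7.76 against 1.62 in TGFβR-KO and 3.84 against 0.331 in the larger TGFβR-WT set, but at 0.248 against 0.445 in the smaller TGFβR-WT set and 0.313 against 0.413 in TGFβR-CA. *Egr1*, another such gene, had ratios of 1.79, 2.72, 1.16 and 0.672. Both were thus above the other cells by the ratio of 1.5 in the larger TGFβR-WT set as well as TGFβR-KO, but not in the smaller set or TGFβR-CA. *Xist* and *BC018473* divide the sets the same way, as given with the comparison of conditions. The part of the library or of the sex of the mice in this was not tested.

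Among ubiquitin genes, *Ubb*, which encodes ubiquitin itself, was higher in all 3 conditions, and *Vcp*, which unfolds ubiquitin-tagged proteins, was lower in all 3. *Ubb* was at 33.0, 18.4, 63.8 and 48.0 against 12.6, 11.9, 27.3 and 25.3, so that the smaller TGFβR-WT set and TGFβR-CA were highest in both kinds of cell.

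Over all genes tested in all 3 conditions, 1.71% were higher in all 3 and 2.55% lower. Among 5 genes of TGFβ receptors and SMADs tested in all 3 conditions, 1 was higher in all 3 and none lower in all 3. This was *Smad7*, the inhibitory SMAD that TGFβ induces, at 0.873 against 0.563 in TGFβR-KO, 2.20 against 0.754 in the larger and 2.63 against 1.02 in the smaller TGFβR-WT set, and 2.07 against 0.701 in TGFβR-CA. Its level in the cluster was lowest in TGFβR-KO, as it was in the other cells.

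**Figure D4:**
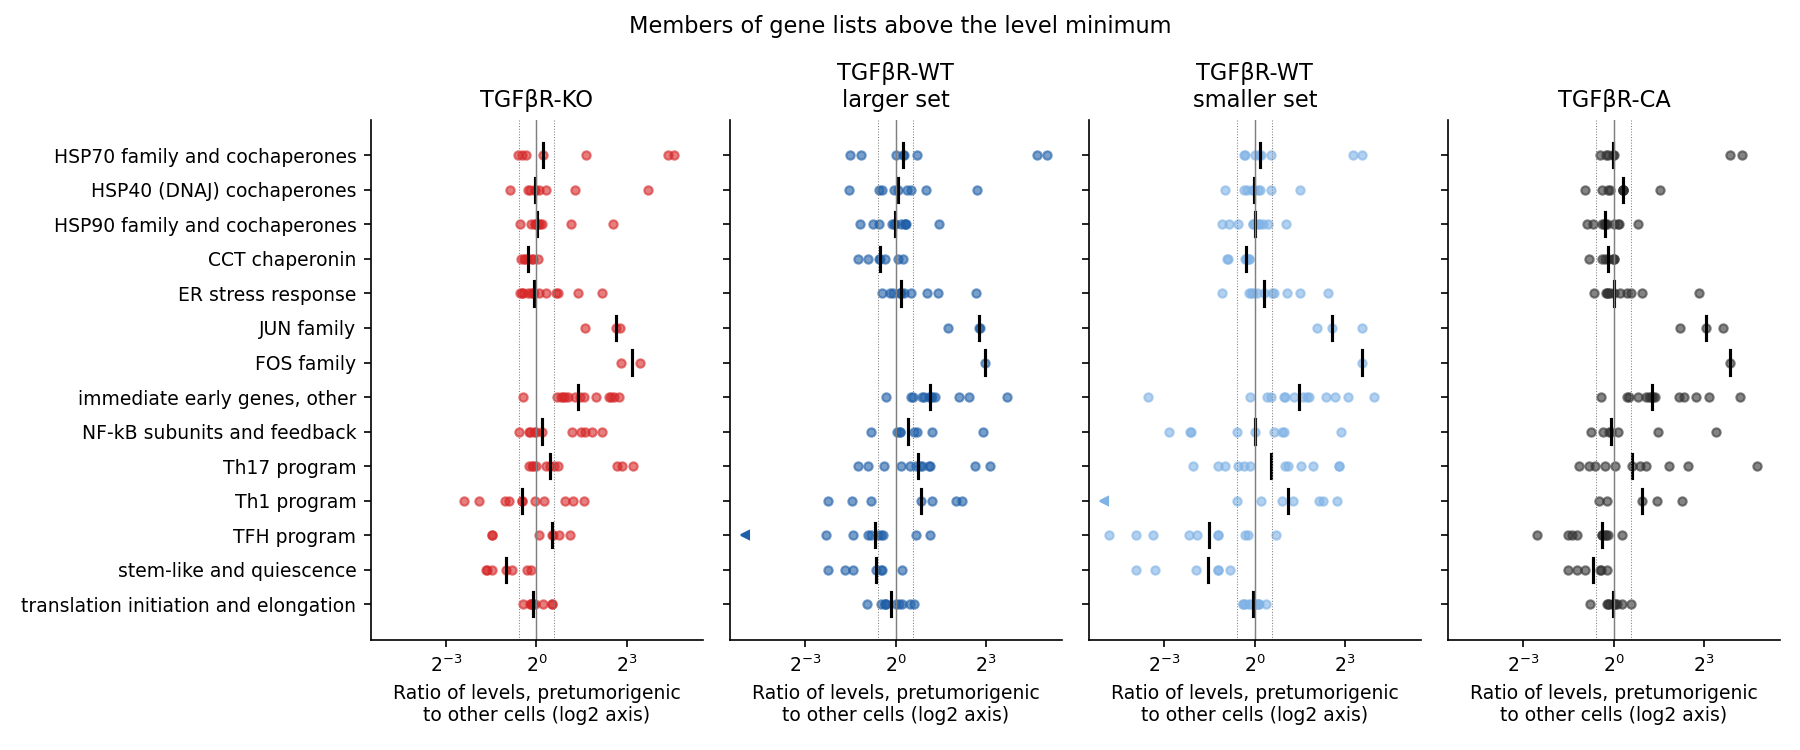
Ratio of the level in pretumorigenic cells to that in other cells (x axes, log2 scale) for each member above the level minimum of 14 gene lists (y axis), by set, with a black bar at the median of a list and dotted lines at the ratio of 1.5 in either direction. A triangle at the left edge stands for a gene at 0 in the cluster, and the JUN and FOS families lie to the right of 1.5 in each set while the CCT chaperonin lies near or below 1.

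Some TH17 genes were also high in the cluster against all other cells together. Of the TH17 list, 5 of 11 tested were higher and none lower in TGFβR-KO. In TGFβR-WT 6 of 13 were higher and 2 lower, and in TGFβR-CA 6 of 11 were higher and 3 lower. Over all tested genes, 4.45%, 7.6% and 4.46% were higher and 12.6%, 20.8% and 18.2% lower in the same order. *Il17a* was at 8.61 in pretumorigenic TGFβR-KO cells, 6.81 in the larger and 20.1 in the smaller TGFβR-WT set and 9.66 in TGFβR-CA, against 1.35, 1.08, 2.86 and 1.73 in the other cells, with ratios of 5.59 to 7.04. It was detected in 23.0%, 37.0%, 55.8% and 41.0% of pretumorigenic cells and in 5.79% to 11.6% of other cells, and its level in TGFβR-KO cells of the CTL cluster, which should lack it, was 0.0331. *Il17f* had ratios of 7.24, 6.39, 6.92 and 3.61. *Il22*, whose product acts on the epithelium, did not follow *Il17a* and *Il17f*. It was at 38.6 in TGFβR-KO, 5.93 in the larger and 0.396 in the smaller TGFβR-WT set and 7.90 in TGFβR-CA, against 4.14, 0.667, 1.64 and 0.288. In the smaller TGFβR-WT set it was therefore lower than in the other cells, at a ratio of 0.241 that rests on 8 corrected UMIs. By condition, *Il17a*, *Il17f* and *Il22* were higher in all 3, with the exception of *Il22* in the smaller set just given.

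Of 11 TH1 genes tested in TGFβR-KO, 3 were higher and 4 lower, beside 4.45% and 12.6% of all tested genes, and their summed level was 29.2 in the cluster against 40.5 in other cells. In TGFβR-WT 5 of 8 tested were higher and 1 lower, beside 7.6% and 20.8% of all genes, and in TGFβR-CA 3 of 5 were higher and none lower, beside 4.46% and 18.2%. The makeup of the other cells differed, since 361 tumorigenic and 321 CTL cells were among the 2745 of TGFβR-KO. Under the TGFβR-WT label these clusters had 5 and 13 cells, and under TGFβR-CA 2 and 3. The difference between conditions was not tested, nor was the part of this makeup in it. *Ifng*, the TH1 cytokine, named here after its values were seen, was at 7.66 against 3.98 in TGFβR-KO, 2.09 against 0.513 in the larger and 2.43 against 0.366 in the smaller TGFβR-WT set, and 1.91 against 0.187 in TGFβR-CA. *Ccl5*, a chemokine of cytotoxic and TH1 cells, was at 3.94 against 20.8 in TGFβR-KO. It was the gene of this list with the largest decrease there. The lower TH1 sum in TGFβR-KO rests on *Ccl5*, since the other listed genes together were higher in the cluster. *Bhlhe40*, a transcription factor of cytokine-producing T cells, was at 6.44, 2.64, 2.58 and 2.51, with ratios of 2.32 to 4.83. It was the 1 TH1 gene of 5 tested that was higher in all 3 conditions, beside 1.71% of all genes tested in all 3. Cells with UMIs of both an IL-17 gene and *Ifng* numbered 23 of 230 in TGFβR-KO, 5 of 27 and 11 of 52 in the larger and smaller TGFβR-WT sets and 14 of 83 in TGFβR-CA. In the same order, 67, 11, 30 and 35 cells had an IL-17 gene and 96, 8, 15 and 16 had *Ifng*. Whether the overlap departs from these shares was not tested.

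Genes of stem-like T cells were lower, and those of follicular helper T (TFH) cells were mixed. Over all genes tested in all 3 conditions, 2.55% were lower in all 3 and 1.71% higher. Of 6 stem-like genes tested in all 3 conditions, 3 were lower in all 3 and none higher. These were *Lef1* and *Satb1*, transcription factors of naive and memory T cells, and *Slamf6*, a receptor on progenitor T cells. *Slamf6* was at 0.425 against 1.19 in TGFβR-KO, 0.769 against 2.07 in the larger and 0.149 against 2.28 in the smaller TGFβR-WT set, and 0.596 against 1.70 in TGFβR-CA. *Tcf7*, the gene of TCF-1, had ratios of 0.574, 0.310, 0.258 and 0.722, so that it did not pass the ratio in TGFβR-CA. Of the TFH genes, 7 of 10 tested were lower and none higher in TGFβR-WT, where 20.8% of all tested genes were lower. In TGFβR-CA 4 of 10 were lower and none higher, beside 18.2% of all genes lower. In TGFβR-KO 2 of 7 were lower and 2 higher, beside 12.6% and 4.45% of all genes, and their summed level was 22.5 against 15.7. The 2 higher ones there were *Cd40lg*, the T cell signal to B cells, with ratios of 2.15 in TGFβR-KO, 2.22 and 0.798 in the larger and smaller TGFβR-WT sets and 0.766 in TGFβR-CA, and *Gpr183*, an oxysterol receptor, with ratios of 1.70, 1.61, 1.64 and 1.22. *Cxcr5*, the receptor that leads TFH cells to follicles, was at 0.103 against 0.319 in TGFβR-KO, 0 against 0.981 in the larger and 0.0495 against 1.41 in the smaller TGFβR-WT set, and 0.219 against 1.29 in TGFβR-CA. *Pdcd1*, the gene of the inhibitory receptor PD-1, had ratios of 0.362, 0.202, 0.0971 and 0.425. In contrast *Ctla4*, another inhibitory receptor, was at 10.8, 6.81, 7.28 and 9.56 against 2.83, 2.70, 2.09 and 2.63. The other genes with the largest decrease in all 3 conditions were *2310001H17Rik*, *Bzw2*, *Asap1*, *Rflnb*, *Pik3ca*, *Pptc7* and *Hist1h4d*, with decreases of 2.46 to 4.12 times for *Bzw2*, *Rflnb* and *Pik3ca* in TGFβR-KO. *Trbc1*, a constant gene of the T cell receptor, was at 8.92 against 16.2 in TGFβR-KO, with ratios of 0.487 to 0.652 over the sets.

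The genes that were higher in all 3 conditions were compact. Their median span in the GENCODE annotation was 5360 bases, beside 20642 for the tested genes and 22985 for those lower in all 3, and 46.7% of them spanned under 5000 bases, beside 15.8% of the tested genes. Of the 36 with a RefSeq promoter in the table, 5 held TGACGTCA (13.9%, *Btg2*, *Ccnl1*, *Dusp1*, *Hlf* and *Ppp1r15a*), beside 3.80% of the 2107 tested genes and 0 of 51 lower genes. GAANNTTC occurred in 6 of the 36 (16.7%, *Ctla4*, *Hspa1a*, *Hspa1b*, *Jun*, *Ppp1r10* and *Tra2b*), beside 6.88% of tested and 9.80% of lower genes. The AP-1 letters TGANTCA occurred in 3 of the 36 (8.33%), beside 5.27% of tested genes. A CCAAT box occurred in 44.4%, beside 40.5%. These are small counts of letters, and *Hlf* and *Ccnl1* are named only for holding them.

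The tumorigenic cluster, of which TGFβR-KO held 361 of the 368 cells, was the most similar to the pretumorigenic one by the number of genes past the ratio. In TGFβR-KO 56 of 1462 genes with a level of at least 1 in either cluster were higher in pretumorigenic cells (3.83%) and 127 lower (8.69%), or 12.5% past the ratio. Against the other 6 clusters this share was 26.0% to 58.6%. Higher in pretumorigenic cells were *Hspa1b* by 6.43 times (83.6 against 13.0), *Hspa1a* by 5.20 times, *Fos* by 4.08 times, *Jun* by 3.85 times and *Dnajb1* by 3.02 times. *Rhob*, a small GTPase gene of the early response, *Bag3*, an HSP70 cochaperone, and *Ccr9*, the receptor that leads T cells to the small intestine, followed with 2.77, 2.61 and 2.54 times. Lower were *Ccl5* (3.94 against 44.4) and *Ccl4* (0.310 against 2.85), both chemokines, *Nkg7*, a gene of cytotoxic granules (2.09 against 8.61), *Hopx* (0.999 against 4.26), *Serpinb9*, an inhibitor of granzyme B (0.195 against 1.32), *Cxcl3* (0.322 against 1.54), *Gramd3* and *Ermn*. *Ifng* was at 7.66 against 21.5. Other stress genes were near each other in the 2 clusters, *Junb* at 81.6 and 62.2 and *Tnfaip3*, a brake on NF-κB, at 12.7 and 17.7.

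**Figure D5:**
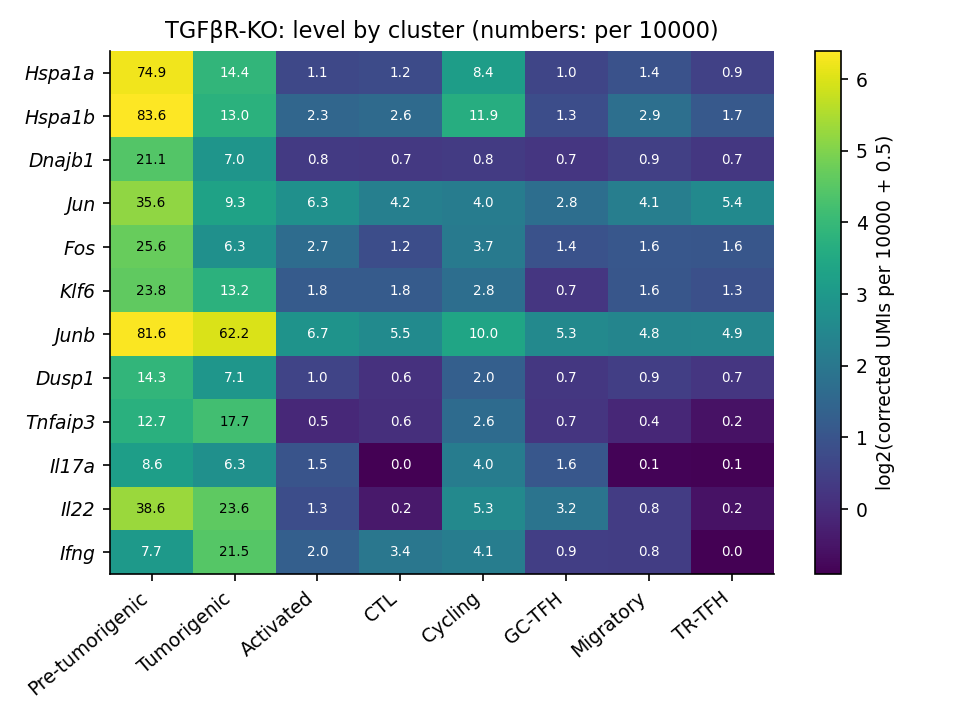
Level of 12 genes (rows) in the 8 clusters (columns) of TGFβR-KO, printed in each cell as corrected UMIs per 10000 and colored by its log2 value after 0.5 was added. The 6 label markers were highest in pretumorigenic cells and next in tumorigenic cells, with the cycling cluster at 11.9 close behind the tumorigenic one at 13.0 for *Hspa1b*, and *Ifng* and *Tnfaip3* were highest in tumorigenic cells.

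Activated cells were farther away. In TGFβR-KO 129 of 1690 genes were higher in pretumorigenic than in activated cells (7.63%) and 349 lower (20.7%). *Hspa1a* was higher by 68.4 times (74.9 against 1.10), *Nr4a1*, an immediate target of T cell receptor signals, by 59.4 times (7.76 against 0.131), *Hspa1b* by 36.0 times, *Il22* by 30.3 times, *Tnfaip3* by 27.8 times and *Dnajb1* by 27.7 times. *Cxcl10*, a chemokine that draws TH1 cells, was at 1.14 against 0.00817, and *Csf2*, the gene of GM-CSF, at 1.85 against 0.0899. Lower were *Lag3*, an inhibitory receptor, at 0.448 against 2.84, *Fabp5*, a fatty acid carrier, at 0.586 against 2.04, *Ly6a*, at 3.26 against 10.3, and *Pde5a*, *Bcl2l11*, *Adam19*, *Lztfl1* and *Sdc4*.

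Between conditions, pretumorigenic cells could be set against the 2 TGFβR-WT sets, which themselves differed widely. Of 1842 genes, 25.3% were higher and 21.1% lower in the smaller than in the larger TGFβR-WT set, on 52 and 27 cells. Against both sets at once, 94 of 1650 genes were higher in pretumorigenic TGFβR-KO cells (5.7%) and 181 lower (11%), and 69 of 1691 were higher in TGFβR-CA cells (4.08%) and 142 lower (8.4%). Libraries, conditions and the sex of the mice cannot be told apart here. The paper used both sexes and does not state the sex of the mice in each pool. *Xist*, the RNA of the inactive X chromosome, was without a UMI in the larger TGFβR-WT set or in TGFβR-KO and at 12.4 and 4.64 in the smaller TGFβR-WT set and TGFβR-CA, and *BC018473* was at 6.04 and 7.36 in the first 2 and at 0.0495 and 0 in the last 2.

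The genes furthest above both TGFβR-WT sets in TGFβR-KO included *Il22*, *Ifrd1*, *Rilpl2*, *Gem*, *Nr4a3* and *Sik1*. *Il22* was 6.52 times the larger TGFβR-WT set. *Ifrd1* was at 3.81 against 0.659 and 0.446 in the larger and smaller sets, and *Rilpl2* at 2.25 against 0.439 and 0.347. *Gem*, a GTPase of activated T cells, was at 2.11 against 0.22 and 0.198, *Nr4a3*, a target of T cell receptor signals, at 1.02 against 0.11 and 0.0991, and *Sik1*, a kinase induced by cyclic AMP, at 1.24 against 0.11 and 0.198. The TGFβR-WT levels of these 3 genes rest on 1 to 4 corrected UMIs a set. *Gem* stood apart in the other cells too, at 0.703 against 0.0787 and 0.0593, while *Rilpl2* was at 1.52 against 1.57 and 1.25 there. *Csf2* had 161 corrected UMIs in pretumorigenic TGFβR-KO cells and 0 in the other 3 sets. Lower in TGFβR-KO were *Sdc4*, a heparan sulfate proteoglycan, at 0.494 against 2.85 and 4.46, *Fgl2*, a secreted immune regulator, at 0.356 against 1.76 and 2.97, *Ccr1*, a chemokine receptor, with 1 corrected UMI in TGFβR-KO against levels of 0.549 and 1.29, *Cpe*, at 0.368 against 1.43 and 2.43, and *Fbxo22*.

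In TGFβR-CA the largest differences were library-wide. *Gm42418* and *AY036118*, which overlap ribosomal RNA genes, were at 506 and 88.3 in pretumorigenic TGFβR-CA cells and at 481 and 85.6 in the other cells of that condition, against 40.5 to 44.4 and 0.941 to 6.15 in the cluster in TGFβR-WT. *Lars2* was at 9.84 against 0.329 and 0.347. *Socs3*, a brake on cytokine signals, was at 1.72 against 0.439 and 0.0991, and *Pdcd1* at 1.35 against 0.329 and 0.248, while *Ptpn11* was at 1.38 against 0.22 and 0.347. Lower were *Itgae*, the gene of CD103, which TGFβ is known to induce, at 0.125 against 0.549 and 1.29, *Ccr1* at 0.157, *Ckb* at 0.658 against 2.85 and 3.02, *Traj18*, *Jchain* and *BC018473*. *Itgae* was thus low in the cells labelled TGFβR-CA and, at 0.161, in TGFβR-KO.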

How the data were processed

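Small-intestinal YFP+CD4+ T cells were profiled by droplet single-cell RNA sequencing. Per the study's methods and the submitters' processing notes, reads were aligned to mm10 with Cell Ranger 3.1.0, cells were filtered on detected genes and mitochondrial share, counts were corrected for depth with SCTransform in Seurat, samples were integrated, and clusters were named from their genes. The values deposited by the authors are the natural log of 1 plus corrected UMIs, so the exponential minus 1 gave whole corrected UMIs, which are not raw counts, and no count model was used. Cluster names come from the deposited table, and γδ T and epithelial clusters had been removed by the authors. No doublet removal is stated and none was done here.

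Corrected UMIs were summed over the pretumorigenic and all other cells of a condition and scaled to 10000. Genes with a level of at least 0.5 over all cells of the condition, or at least 1 in either group for pairs of clusters or conditions, were compared by ratio, with 1.5 as the threshold. Between conditions a ratio had to pass against both TGFβR-WT sets. Gene lists numbered 46. The members, the lists and the rule were chosen with earlier results of these data known. Genes named in the text were the label markers, genes the study names for the cluster, the 10 strongest in each direction, up to 5 members of each list among those above the level minimum in TGFβR-KO, and the 8 and 6 strongest in the comparisons of clusters and of conditions. Members counted as higher or lower in all 3 conditions are also named, and *Ifng*, *Tgfbr2*, *Batf*, *Egr1*, *Tcf7*, *Cxcr5*, *Hspa9*, *Gpr183*, *Cd40lg*, *Xist* and *Itgae*, where the rule did not already take them, were named after their values were seen. A gene's position is that of GENCODE on mm10, and promoters are from RefSeq on GRCm38.p6. The steps were tested on simulated data. Python 3.11.15, numpy 2.4.6, pandas 2.3.3, scipy 1.17.1 and matplotlib 3.10.9 were used.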

Additional observations from a re-analysis of the deposited data

Results flagged for a closer look

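*Kdm6b*, the gene of an H3K27 demethylase, stood on opposite sides of the other cells in 2 conditions. Its level was 2.63 in pretumorigenic and 1.25 in other TGFβR-KO cells, a ratio of 2.10, while in TGFβR-WT the ratio was 0.523. The larger TGFβR-WT set was at 0.878 against 1.54 and the smaller at 0.793 against 1.62, and TGFβR-CA was at 1.19 against 1.29. The difference between conditions was not tested, since TGFβR-KO is 1 sample.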

How the results depend on the processing

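No paired analysis was possible because TGFβR-KO and TGFβR-CA cells carry no replicate number, TGFβR-WT cells are not tied to either sample, and no result comes from a test. Of 204 values under other settings, for 26 results, 144 stayed close to the value reported (within 1.5 times for a count, its confidence interval for a share and 1 SD over the 4 sets for a median ratio on the log2 scale), 60 moved by more, and no median ratio of the markers turned below 1. The TGFβR-WT share was 3.81% to 17.4% when either set was left out. The median ratio of the 6 markers was 12 in TGFβR-KO and 21.4 without tumorigenic cells, 11.9 in TGFβR-WT and 9.0 to 11.1 with either set left out, and, with clusters weighted equally, 6.02 in TGFβR-WT and 5.99 in TGFβR-CA.

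Counts of genes moved most with the level minimum. With a minimum of 1, the higher genes of TGFβR-KO numbered 81, those of TGFβR-WT 125 and those of TGFβR-CA 61, and the lower genes 128, 266 and 192. With no minimum they were 1549, 1540 and 1625 higher and 2469, 2439 and 2374 lower. With a ratio of 2 they were 80, 85 and 65 higher and 69, 251 and 173 lower. With 0.5 added to each level, 129 were higher in TGFβR-WT and 85 in TGFβR-CA, and 72, 259 and 140 were lower. With clusters weighted equally, 238 were higher in TGFβR-CA. List members that were higher numbered 117, 108 and 105 in these conditions with no minimum, 41 in TGFβR-WT at a ratio of 2, and 32 in TGFβR-CA at a minimum of 1. Members that were lower numbered 53, 71 and 64 with no minimum, 10, 26 and 10 at a ratio of 2, 31 in TGFβR-WT and 20 in TGFβR-CA at a minimum of 1, 31 and 16 there with 0.5 added, and 36 in TGFβR-KO with clusters weighted equally.

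With 0.5 added, 35 genes were higher and 71 lower than in tumorigenic cells and 156 lower than in activated cells. Between conditions, 74 were then lower in TGFβR-KO, and 35 higher and 69 lower in TGFβR-CA. With either TGFβR-WT set left out, so that 1 set decided, 209 to 240 were higher and 419 to 532 lower in TGFβR-KO, and 184 to 263 higher and 441 to 449 lower in TGFβR-CA. The minimum over other cells alone and the geometric mean of the 2 TGFβR-WT sets were chosen after seeing the data. The smaller TGFβR-WT set has 52 cells of the cluster and the larger 27, so 3 corrected UMIs are a level of 0.149 and 0.329 there, and genes near those levels could not be compared.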

Other observations

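Genes of tissue residency were higher in the cluster more often in TGFβR-WT and TGFβR-CA than in TGFβR-KO by count, a difference that was not tested. Of 7 tested, 6 were higher in TGFβR-WT and none lower, 5 were higher and 1 lower in TGFβR-CA, and 2 were higher and 1 lower in TGFβR-KO, beside 7.6%, 4.46% and 4.45% of all tested genes higher and 20.8%, 18.2% and 12.6% lower. Their summed level was 44.8 against 27.7 in TGFβR-KO, 62.5 against 15.0 in TGFβR-WT and 45.9 against 11.2 in TGFβR-CA. *Ccr9*, the gut homing receptor, was at 4.25 against 3.07 in TGFβR-KO, 7.25 against 2.69 in the larger and 13.8 against 2.92 in the smaller TGFβR-WT set, and 7.08 against 2.22 in TGFβR-CA. *Cxcr6*, a chemokine receptor of resident T cells, was at 4.86 against 5.94, 6.81 against 2.52, 7.73 against 1.51 and 2.73 against 1.13 in the same order, so that TGFβR-KO was the 1 set in which it was not above the other cells. Tumorigenic and CTL cells, 361 and 321 in number, were among these other TGFβR-KO cells but rare under the remaining labels. Their part in the contrast between conditions was not tested.

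Of the cytotoxic genes, 1 of 3 tested was higher and 2 lower in TGFβR-WT, none of 6 was higher and 3 were lower in TGFβR-KO, and the 1 tested in TGFβR-CA was lower. Over all tested genes, 7.6%, 4.45% and 4.46% were higher and 20.8%, 12.6% and 18.2% lower in TGFβR-WT, TGFβR-KO and TGFβR-CA. *Gzmb*, the gene of granzyme B, was at 1.02 against 1.32 in TGFβR-KO, 2.42 against 0.696 in the larger and 1.63 against 0.297 in the smaller TGFβR-WT set, and 1.10 against 0.347 in TGFβR-CA. *Gzma*, the gene of granzyme A, was at 1.53 against 2.42, 0 against 0.932, 0.0991 against 1.09 and 0.502 against 0.0935 in the same order. The other TGFβR-KO cells include 361 tumorigenic and 321 CTL cells, whereas those 2 clusters together have 18 cells in TGFβR-WT and 5 in TGFβR-CA. *Cdkn1a*, the gene of the cell cycle inhibitor p21, was at 1.63 against 0.410 in TGFβR-KO, and at 0.0991 to 0.329 in the cluster in the other sets. *Rhob* was above the other cells in each of the 4 sets, at 1.67 in TGFβR-KO, 2.74 and 2.97 in the larger and smaller TGFβR-WT sets and 4.26 in TGFβR-CA, with ratios of 6.47 to 18.2.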
